A study of Mus musculus with 18 samples.

Results

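The transcriptome of the young wild-type (WT) mouse aorta was described from 6 of the 18 mice in the series. The members are the libraries whose columns in the deposited count table carry the 2-mo WT name, and this rule uses no measured value. All 6 were male C57BL/6 mice of WT genotype, kept on a chow diet and killed with CO2. The paper names Jackson Labs as the source of WT mice that were aged to 24 mo, and gives no separate source for the 2-mo WT mice. Mice 1 to 5 were 62 d old and mouse 6 was 95 d old by its label, so the age of mouse 6 and the animal itself cannot be told apart. The remaining mice, a progeria model (HGPS) and WT mice of 24 mo, were not compared here. Each library came from the descending aorta of a separate mouse, with intima, media and adventitia kept together, and was made from total RNA after depletion of ribosomal RNA with a strand-preserving kit.

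The aorta is an elastic artery. Its media consists of smooth muscle cells that contract through actin and non-sarcomeric myosin and that lie between lamellae of elastin and bundles of fibrillar collagen. A single layer of endothelium lines the lumen, and the adventitia outside the media holds fibroblasts, macrophages, nerves and small vessels and borders on perivascular fat. Because whole tissue was sequenced, fewer cells of a type and less RNA per cell cannot be told apart in any value below.

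The 6 libraries held 12413229 to 21016752 estimated counts, with a median of 18031579. Levels per library are given as CPM, the counts of a gene scaled by all counts of its library,, in which 3 counts correspond to 0.143 to 0.242 CPM and mark the limit of detection for a gene at 0. Levels are compared between genes only as TPM, in which counts are divided by transcript length before scaling, computed over protein-coding genes from the counts and the longest coding transcript of each gene. Values are means ± SD over the 6 mice unless stated otherwise, and intervals and limits cover counting error only. All 15 pairs of mice differed by more than counting noise (chi-square per degree of freedom 11 to 42.8), while their rank correlations across 10339 genes ran from 0.976 to 0.989. As a check of the tissue label, all 12 smooth muscle markers were counted at 10 or more in every mouse, and the epithelial markers together came to 0.157 CPM.

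Of 21805 protein-coding genes, 11911 reached 1 TPM in all 6 mice, 1091 did so in some mice only, and 5199 had no count in any of them. Abundance was concentrated in few genes. The 10 most abundant genes held 12.7 ± 0.557% of all TPM (SD, n = 6), the first 100 held 33.1 ± 0.667% and the first 1000 held 65%. A share of 50% of all TPM came from 351 to 388 genes, with a median of 367, and the 90% mark was reached with 4601 to 4712 genes. With no scaling by gene length, 50% of the counts of protein-coding genes came from 593 genes on average. The upper end of the ranking was similar between animals. In all, 16 genes were among the first 20 in every mouse and 24 genes were among the first 20 in any. In the first 100 genes of the mean ranking, 25 coded for ribosomal proteins, 12 for the contractile apparatus, 12 for extracellular matrix, 8 were mitochondrially encoded and 3 were haemoglobin genes.

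**Figure D1:**
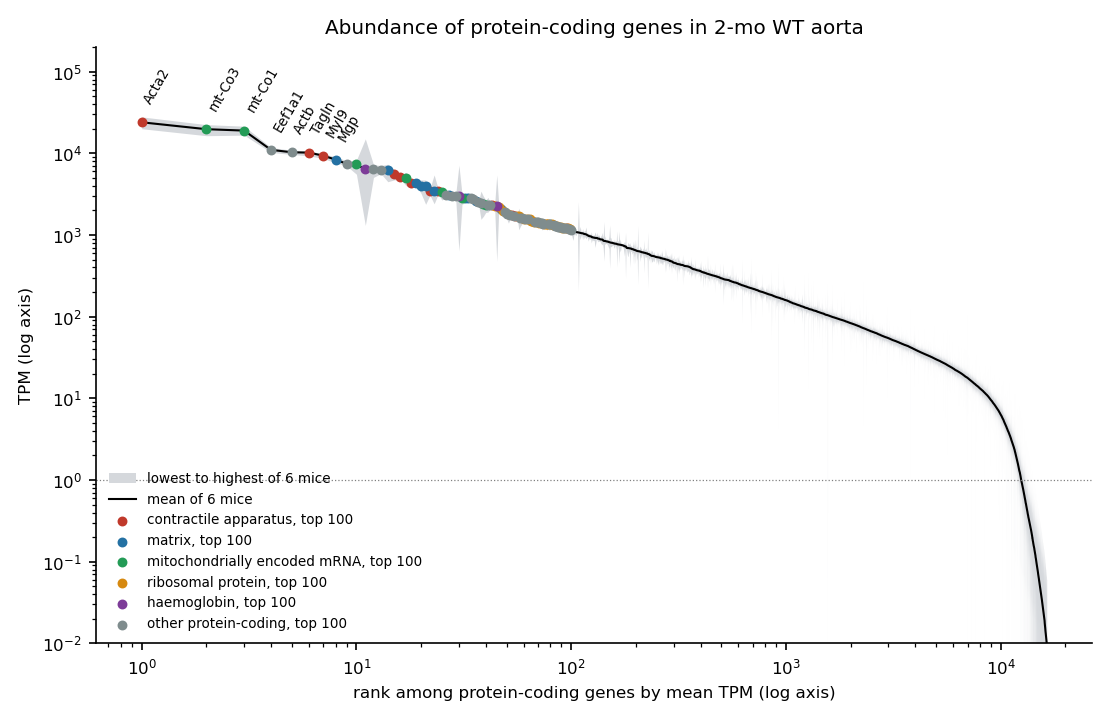
Mean TPM over 6 mice (vertical log axis) against abundance rank of protein-coding genes (horizontal log axis), with a band from the lowest to the highest mouse and the first 100 genes coloured by class. The curve starts at Acta2 with 23955 TPM, and 11911 genes stay at or above 1 TPM (dotted line) in all 6 mice.

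The most abundant mRNA was Acta2, smooth muscle alpha-actin, the main actin of the contractile filaments (chr19:34241090-34255590, minus strand, GRCm38.p6). Its level ranged from 19980.4 through a median of 23412 to 27899 TPM, with a mean of 23955 ± 3125 TPM, and it ranked first by mean. Other genes of the actin and myosin machinery were also among the first 20. Tagln, an actin-binding protein of differentiated smooth muscle, was at 10182 ± 499.97 TPM, and Myl9, the regulatory myosin light chain, at 9355 ± 409 TPM. Myh11, the smooth muscle myosin heavy chain, was at 4368 ± 354 TPM (chr16:14194535-14291372, minus strand). Dstn, which severs actin filaments, stood at 6270.3 ± 493 TPM, Flna, which cross-links them, at 5603 ± 549.96 TPM and Myl6, the essential myosin light chain, at 5126 ± 244 TPM. Tagln spanned 9301 to 10737 TPM and Myl9 8638 to 9803 TPM, narrower in proportion than Acta2, whose CV (SD as a percent of the mean) was 12.4% in CPM.

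Matrix and cytoskeletal genes formed another set among the first 20. Mgp, an inhibitor of vascular calcification, was at 8358 ± 631 TPM, the intermediate filament gene Vim at 6332 ± 859 TPM, and Igfbp7, a secreted binding protein of insulin-like growth factors, at 4362 ± 195 TPM. Sparc, a collagen-binding glycoprotein, measured 6219, 7338, 6004, 5836, 7255 and 4483 TPM in mice 1 to 6, and Col3a1, the chain of type III collagen, measured 3873, 4492, 3944, 3798, 4718 and 3220.2 TPM. In both genes mouse 6 was the lowest of the 6. Among general cellular mRNAs, Eef1a1, an elongation factor of translation, reached 11013 ± 535 TPM, Actb, a cytoplasmic actin, 10291 ± 545 TPM and Tmsb4x, which sequesters actin monomers, 7428 ± 389 TPM.

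The remaining places among the first 20 went to mitochondrially encoded subunits and to blood. The cytochrome c oxidase subunits mt-Co3, mt-Co1 and mt-Co2 stood at 19719.6 ± 2566, 18952 ± 2174 and 7302 ± 1115 TPM, and mt-Atp6, a subunit of ATP synthase, at 5012 ± 733 TPM. Much of their sequence recurs elsewhere in the annotated transcripts: 99.9% of the 31-base words of mt-Co3 and 63.9% of those of mt-Co1 occur in another gene, so their counts depend on how the authors' quantification divided shared reads. The same holds for Eef1a1, with 72.3% shared words, and for Actb, with 35.1%. Hbb-bs, an adult beta-globin of red cells, measured 15012, 2152, 5196, 1308, 8245 and 6087 TPM in mice 1 to 6. It was highest in mouse 1 and lowest in mouse 4, and 66.9% of its sequence words occur in another gene.

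The counts were next divided into 13 gene classes, of which contractile and matrix genes were the largest after the class of all other protein-coding genes. The 35 contractile genes held 7.16, 8.35, 7.61, 8.06, 8.11 and 7.95% of counts in mice 1 to 6, 7.87 ± 0.424% on average. The 160 matrix genes held 7.01, 7.33, 7.34, 7.45, 7.88 and 6.85%, on average 7.31 ± 0.357%. The contractile share was the higher of the pair in all 6 mice, by a small margin in mouse 1. It was lowest in mouse 1 and highest in mouse 2, and the matrix share was highest in mouse 5 and lowest in mouse 6.

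By counts, small structured RNAs took 4.74 ± 1.32%, mitochondrially encoded mRNAs 2.11 ± 0.310%, ribosomal protein mRNAs 2.11 ± 0.0631%, mitochondrial ribosomal and transfer RNAs 1.77 ± 0.315% and long non-coding RNAs 1.16 ± 0.0937%. Smaller shares went to the nuclear genes of the respiratory chain at 0.662 ± 0.0875%, pseudogenes at 0.595 ± 0.0479%, haemoglobins at 0.269 ± 0.221% and histones at 0.145 ± 0.00979%. Immunoglobulin and T cell receptor genes held only 0.000983 to 0.00275%. Short mRNAs weigh more per length, and as shares of TPM the ribosomal protein class held 6.79%, next to 7.99% for contractile, 6.69% for matrix and 6.38% for mitochondrially encoded mRNAs.

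**Figure D2:**
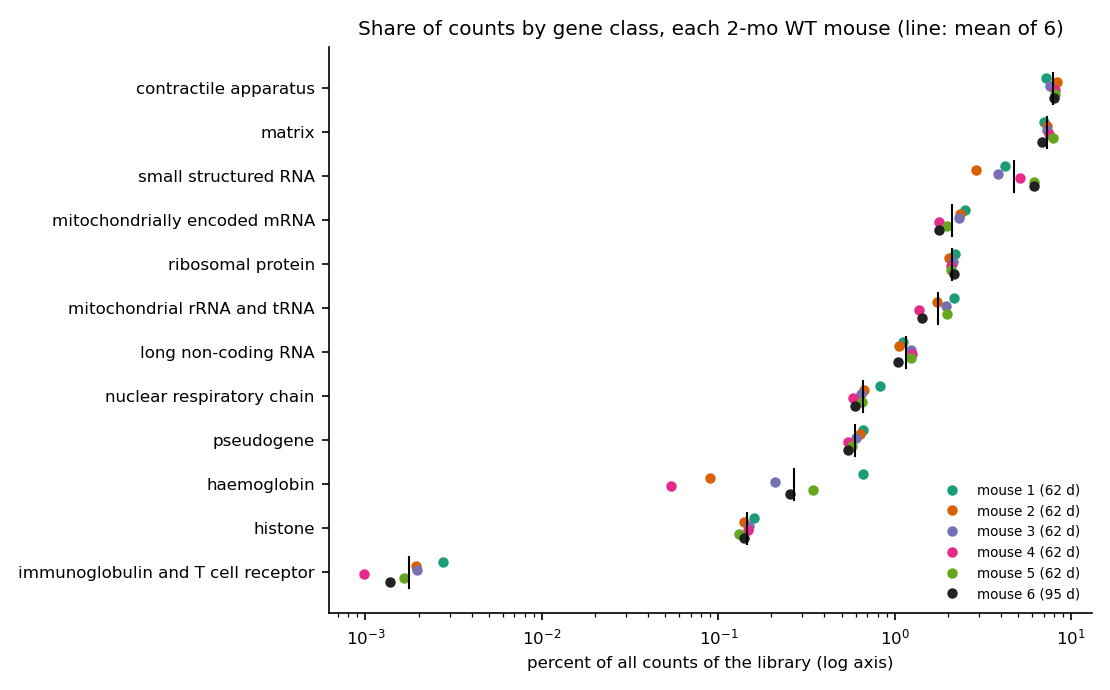
Percent of all counts of a library in each gene class (horizontal log axis) for the 6 mice, drawn as coloured points with the class mean as a vertical line; the class of all other protein-coding genes, 71.3% on average, is left out. Contractile and matrix shares lie in a narrow band, between 6.85 and 8.35%, while haemoglobin runs from 0.0539 to 0.663%.

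The 77 ribosomal protein genes were all at 1 TPM or more in every mouse, with a median gene at 780 TPM and Rps4x highest at 2264 TPM. Their summed share stayed between 2.02 and 2.19% of counts. Of the non-coding genes, Rn7s1, a copy of the RNA of the signal recognition particle, was the most abundant and measured 31799.5, 20957, 29286, 39113, 46485 and 48015 CPM in mice 1 to 6. All of its 31-base words occur in another gene, so the value is one for the gene family. The other abundant non-coding genes were mt-Rnr2, the large mitochondrial ribosomal RNA, at 16734 ± 2994 CPM, Rn7sk, a regulator of transcript elongation, at 9076 ± 2232 CPM, the nuclear RNA Malat1 at 2131 ± 552 CPM and the unnamed gene AC160336.1 at 1717 ± 305 CPM. The most abundant pseudogene, Gm28661 (chr1:24614885-24615565), was at 1073 CPM, and all of its sequence words occur in another gene. Malat1 was lowest in mouse 6, at 1211 CPM against 1765 to 2605 CPM in the others.

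Within the families of the contractile apparatus, a single member led in most cases. Acta2 held 63.6 ± 2.04% of actin TPM, ahead of Actb with 27.5%, Actg1 with 7.34% and the visceral smooth muscle actin Actg2 with 1.5%. Myh11 held 89.1 ± 0.349% of myosin heavy chain TPM, with the non-muscle heavy chains Myh10 at 8.22% and Myh9 at 2.63%. Myl9 made up 62.4 ± 0.779% of light chains, Flna 96.1 ± 0.313% of filamins, Actn1 77.8 ± 0.788% of alpha-actinins and Tagln 75.5 ± 0.848% of calponins and transgelins. The tropomyosins were more even, with 51.2 ± 1.09% for Tpm2 and 38% for Tpm1.

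To ask whether one member of a family exceeded another in every animal, 24 pairs of genes were compared within mice on log2(TPM + 1) by an exact two-sided sign-flip permutation test. With 6 mice this exact test cannot go below p = 0.03125, and its p-values measure only the spread between these mice. In 22 of the 24 pairs (91.7%) all 6 mice gave the same direction, at an adjusted p of 0.0341 by the exact permutation test with Benjamini-Hochberg correction. Any pair with 1 direction in all 6 mice gives the smallest p of this test. The share among arbitrary pairs of genes was not computed, so the count of 22 is a description. The size of a difference depends on the length given to each gene, and in 17 of the 24 pairs the ratio moved by over 1.5 times with the union of exons or with the mean transcript length as length, so both of these values follow in that order. Acta2 was 2.31-fold above Actb (log2 difference 1.21 ± 0.14, then 1.58 and 0.59), and Myh11 was 34.1-fold above Myh9 (5.08 ± 0.18, then 5.66 and 3.60). Tpm2 exceeded Tpm1 by a log2 difference of 0.43 ± 0.07 (1.18 and 0.18). Desmin, the muscle intermediate filament (Des, 50.7 ± 5.27 TPM), was lower than Vim in all 6 mice, by a factor of 124 (log2 difference -6.93, then -6.13 and -6.53). The nuclear lamina gene Lmna stood at 391.5 ± 55.9 TPM, 107-fold above Lmnb1 (log2 difference 6.38, then 5.64 and 6.45). Lmna held 5.6% of the TPM of the intermediate filaments and lamins, against 90.4% for Vim.

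Contractile genes are classic targets of serum response factor (SRF), which binds a short motif called the CArG box and is activated in smooth muscle by its cofactor myocardin (Myocd). Myocd measured 84.9, 90.6, 101, 115, 123 and 174 TPM in mice 1 to 6, highest in mouse 6 and lowest in mouse 1. It held 52.2% of the TPM of SRF and its cofactors, and Srf itself held 34%. RefSeq promoters (250 bases before to 50 after the start, GRCm38.p6) were searched for the strict form of the CArG box, CCWWWWWWGG, with W for A or T. This form reads alike on both strands, and forms with another base were not searched. It occurred in 488 of 27025 genes with a promoter entry (1.81%), in 151 of 9374 of those at 1 TPM or more in all mice (1.61%), and in 4 of the 29 contractile genes with a promoter entry (13.8%). Of the 50 genes of highest TPM, 29 had a promoter entry, and 4 of these 29 (13.8%) held it: Actg1, Fhl1, Myl6 and Myl9. The start of the Fhl1 promoter matched no annotated transcript start, so Fhl1 is named only. The other 5 genes are shown 5′ to 3′ because their promoters hold the motif, with the CArG box in capitals and 10 bases on either side.
Myl6 (chr10:128493040-128493069, minus strand, 50 bases before the start): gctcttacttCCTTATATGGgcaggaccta
Myl9 (chr2:156775293-156775322, plus strand, 161 bases before the start): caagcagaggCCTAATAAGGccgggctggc
Vcl (chr14:20929161-20929190, plus strand, 227 bases before the start): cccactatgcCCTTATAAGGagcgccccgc
Ldb3 (chr14:34588697-34588726, minus strand): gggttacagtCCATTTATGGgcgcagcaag
Actg1 (chr11:120348566-120348595, minus strand, 90 bases before the start): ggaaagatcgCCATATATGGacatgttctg

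These matches describe the promoter window alone and are not evidence of binding. Myl9 and Myl6, the light chains that bind the myosin heavy chain, were at 9355 and 5126 TPM. No match to the strict form was found for Acta2, the most abundant mRNA. CArG boxes with another base were not searched, so a CArG box at Acta2 is not excluded. Vcl, which ties actin to adhesion sites, was at 528 ± 41.9 TPM and Ldb3, a protein of the contractile lattice, at 64.1 ± 10.05 TPM.

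The most abundant matrix genes by TPM were Mgp and Sparc, named above, ahead of the collagens and elastin. Among fibrillar collagens, Col3a1 (chr1:45311538-45349706, plus strand) held 48.6 ± 2.74% of the TPM, Col1a2 34.5%, Col1a1 9.22%, Col5a2 5.09% and Col5a1 2.49%. The chains of type I collagen were unequal at the mRNA level, with Col1a2 at 2839 ± 303 TPM and Col1a1 at 759 ± 108 TPM, a 3.75-fold difference in the direction of Col1a2 in all 6 mice (log2 difference of Col1a1 to Col1a2 -1.91, then -0.84 and -1.40 with the other lengths). Col3a1 exceeded Col1a1 by a factor of 5.28 (log2 difference 2.40, then 1.73 and 2.29). Col5a1, a chain of the type V collagen that nucleates fibrils, was at 203 ± 19.1 TPM.

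In the basement membrane, Col4a1 led the type IV collagens with 45.8 ± 1.4%, followed by Col4a5 with 21.9% and Col4a2 with 18.6%, and Lamb2 led the laminins with 57.4 ± 2.39%. Of the laminin alpha chains, Lama4 exceeded Lama5 by a factor of 3.42 (log2 difference of Lama5 to Lama4 -1.75, then -0.77 and -1.16). Among the remaining collagens Col18a1, the source of endostatin, held 36.7 ± 2.65% and Col6a1 21.5%.

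Eln, which codes for tropoelastin, ranked 21st by mean TPM (chr5:134702593-134747323, minus strand) and measured 4267, 4138, 4070.01, 4236, 4703 and 2374 TPM in mice 1 to 6. Mice 1 to 5 lay close together and mouse 6 stood well below them, and the mean was 4283 TPM without mouse 6 against 3965 ± 810.2 TPM with it. Eln held 52.5 ± 6.02% of the TPM of elastic fibre genes, 40.4% at its lowest in mouse 6. The rest of the fibre machinery was far lower, with the latent TGF-beta binding protein Ltbp1 at 8.62%, the microfibril-associated genes Mfap4 and Mfap5 at 7.37 and 7.22%, the assembly factor Fbln5 at 5.29% and fibrillin-1, Fbn1, at 3.21%. The Eln to Fbn1 difference was 4.03 on the log2 scale (2.98 and 3.92 with the other lengths), and Fbln5 exceeded Efemp2, another fibulin, by 1.60.

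The lysyl oxidases, which cross-link collagen and elastin, were shared between a leading pair. Lox measured 291, 333, 266, 253, 275 and 229.8 TPM in mice 1 to 6 and Loxl1 averaged 244 ± 29.1 TPM, so that Lox held 41.7% and Loxl1 37% of the family. Lox was above Loxl1 in 4 of 6 mice, with a log2 difference of 0.17 ± 0.31 that ran from -0.20 to 0.57 (adjusted p = 0.219, exact permutation test), so these 2 neighbours in the order were not separated beyond their spread. Loxl3, Loxl2 and Loxl4 followed with 12.6, 7.51 and 1.21%. A similar near-tie held for the small leucine-rich proteoglycans Dcn and Bgn, at 3089 ± 137 and 2854 ± 227 TPM (log2 difference 0.12 ± 0.09, higher for Dcn in 5 of 6 mice, adjusted p = 0.0652, exact permutation test), and their order also depends on the gene length used.

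Matricellular and proteolytic genes were less even. Ccn2, connective tissue growth factor, measured 2407, 2593, 3303, 4056, 2959.6 and 5430.3 TPM in mice 1 to 6, highest in mouse 6, and held 61.5 ± 6.48% of the CCN family. Timp3, a protease inhibitor bound to matrix, held 60.7 ± 2.00% of TIMP TPM and Timp2 35.1%, a log2 difference of 0.79 ± 0.12 that was 0.08 with the union of exons as length (adjusted p = 0.219, exact permutation test). No metalloproteinase dominated, with Mmp23 at 28%, Mmp2 at 23.5% and Mmp3 at 23.3%, and Mmp2 was higher than Mmp14 in all 6 mice by 1.62 on the log2 scale (2.36 and 1.53 with the other lengths). Thbs2 led the thrombospondins with 30.1 ± 5.03%, but it was above Thbs1 in only 4 of 6 mice.

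Adhesion and signalling families had clear leaders too. Itga8, an integrin chain of smooth muscle, held 74.1 ± 0.994% of alpha chain TPM at 3460.5 ± 246 TPM, and its partner Itgb1 64.9 ± 1.63% of beta chains. Cav1, the scaffold of caveolae, held 48.8 ± 1.43% of caveolins and cavins, Aqp1 98.5 ± 0.826% of aquaporins, and Igfbp7 87.2 ± 1.24% of its family. Of the gap junction genes, Gja1 held 47.4%, Gja5 18% and Gja4 10.4%. Among Notch receptors Notch2 held 70.1 ± 3.34%, ahead of the mural cell receptor Notch3 with 15.5% and Notch1 with 9.77%. Notch3 exceeded Notch1 in all 6 mice by a log2 difference of 0.65 ± 0.32, which turned to -0.57 when the mean transcript length was used. Among TGF-beta ligands Tgfb3 held 82.2 ± 2.22%.

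Genes of excitation and of vascular receptors came next. Kcnmb1, the smooth muscle beta subunit of the BK potassium channel, made up 81.4 ± 1.93% of BK subunits and exceeded the pore gene Kcnma1 by 2.10 on the log2 scale, which became 2.59 with the union of exons and 0.30 with the mean transcript length. Cacna1c held 79.98 ± 3.14% of L-type pores and Atp2a2 90.2 ± 1.69% of sarcoplasmic calcium pumps. Of 30 vascular receptors, 20 were at 1 TPM or more in all mice. The natriuretic peptide receptor Npr1 was highest at 246 TPM, followed by Npr2 at 46.9, the serotonin receptor Htr1b at 44.1, the adrenergic receptor Adra1d at 42 and the thromboxane receptor Tbxa2r at 36.5 TPM. Hox genes, which record position along the body axis, were led by Hoxa7 at 38.6 TPM, Hoxb2 at 23.2, Hoxc6 at 5.01 and Hoxd8 at 2.00 TPM, and the clusters summed to 82.5 TPM for A, 71.9 for B, 10.9 for C and 2.58 for D.

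In other families the TPM was divided among several genes. Mylk, the kinase that switches on smooth muscle myosin, held 27.4 ± 0.972% of the genes of myosin phosphatase and its kinases, Anxa6 23 ± 1.27% of annexins, S100a6 46.8 ± 1.78% of S100 proteins and the insulin-dependent Slc2a4 29.1 ± 5.48% of glucose transporters.

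Over all 40 families, the leading gene held more than 50% of the family TPM in 23, and the leader exceeded the second gene in all 6 mice in 36. The leader is by construction the highest gene, so these counts are a description, and with the union of exons or the mean transcript length 35 of the 40 kept their leader. The summed TPM of a family varied between mice by 2.80 to 24.7% (CV).

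**Figure D3:**
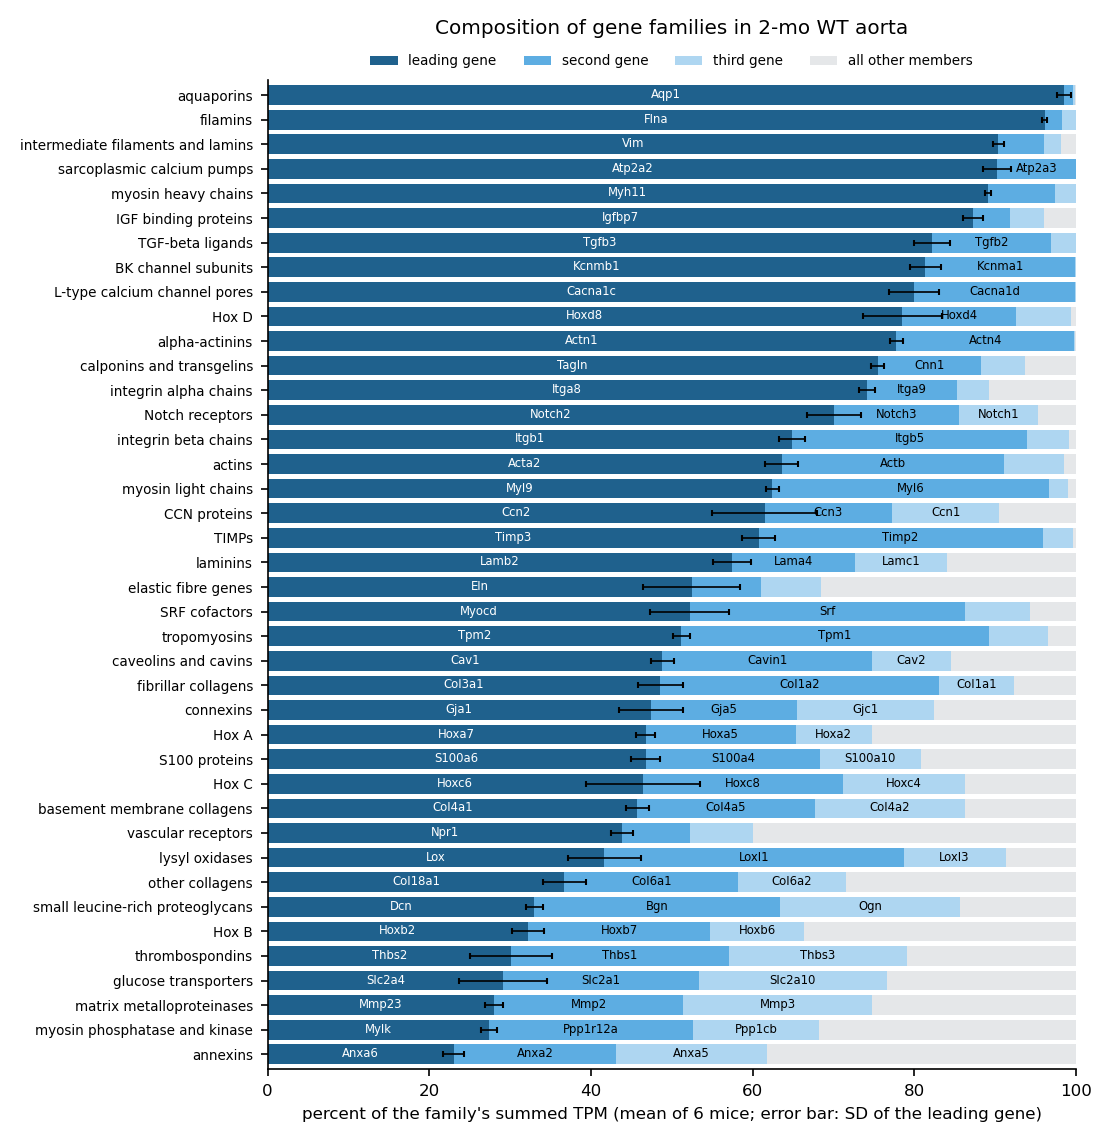
Percent of family TPM held by the leading gene, the next ones and all others (stacked bars, horizontal axis from 0 to 100%) in 40 families, mean of 6 mice, with an error bar of 1 SD on the leading gene. Aqp1 (98.5%), Flna (96.1%) and Atp2a2 (90.2%) nearly fill their families, and lysyl oxidases and small leucine-rich proteoglycans are divided.

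Cell type markers were summed in CPM over 22 lists. Such sums do not compare cell numbers, since the lists differ in length and in the level of their genes. The 12 smooth muscle markers summed to 37240.4 ± 2532 CPM and ranged from 33433 to 40212 CPM, the 12 fibroblast markers to 3760.2 ± 102 CPM and the 13 endothelial markers to 1284 ± 278 CPM. Macrophage markers summed to 799 ± 126 CPM, led by Lyz2, a lysozyme, at 211 CPM and the mannose receptor Mrc1 at 115 CPM. Lists for other cell types gave smaller sums, with cartilage at 103 ± 12.4 and lymphatic endothelium at 60.6 ± 16.6 CPM. Schwann cell markers summed to 28.7 ± 1.8, mast cell markers to 21.3 ± 10.4 and cycling cell markers to 17.1 ± 3.43 CPM. Only 4 of the 9 cartilage markers had 10 counts or more in every mouse. Comp was the highest of them at 74.1 TPM, while Col2a1 was at 0.0194 TPM, so this sum does not establish cartilage cells. Dendritic cell markers summed to 21.9 CPM, of which Zbtb46 alone gave 20.4, and B cell markers to 18.2 CPM, of which Ighm gave 14.2.

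Several cell types were barely represented. Skeletal muscle, cardiac muscle, liver, neutrophil, neuron, T cell and epithelial lists had mean sums from 5.27 CPM for skeletal muscle down to 0.157 CPM for epithelium. The mesothelial list had a median of 2.39 CPM and a mean of 7.29 CPM that rested on mouse 3. The markers Ly6g of neutrophils, Th and Dbh of sympathetic neurons, Nppa and Myl3 of cardiac muscle, and Epcam, Krt5 and Sftpc of epithelium had 0 counts in all 6 mice, which allows up to 0.143 to 0.242 CPM per library. Ranked by the mean TPM of their markers in place of summed CPM, only 5 of the 22 lists kept their place.

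**Figure D4:**
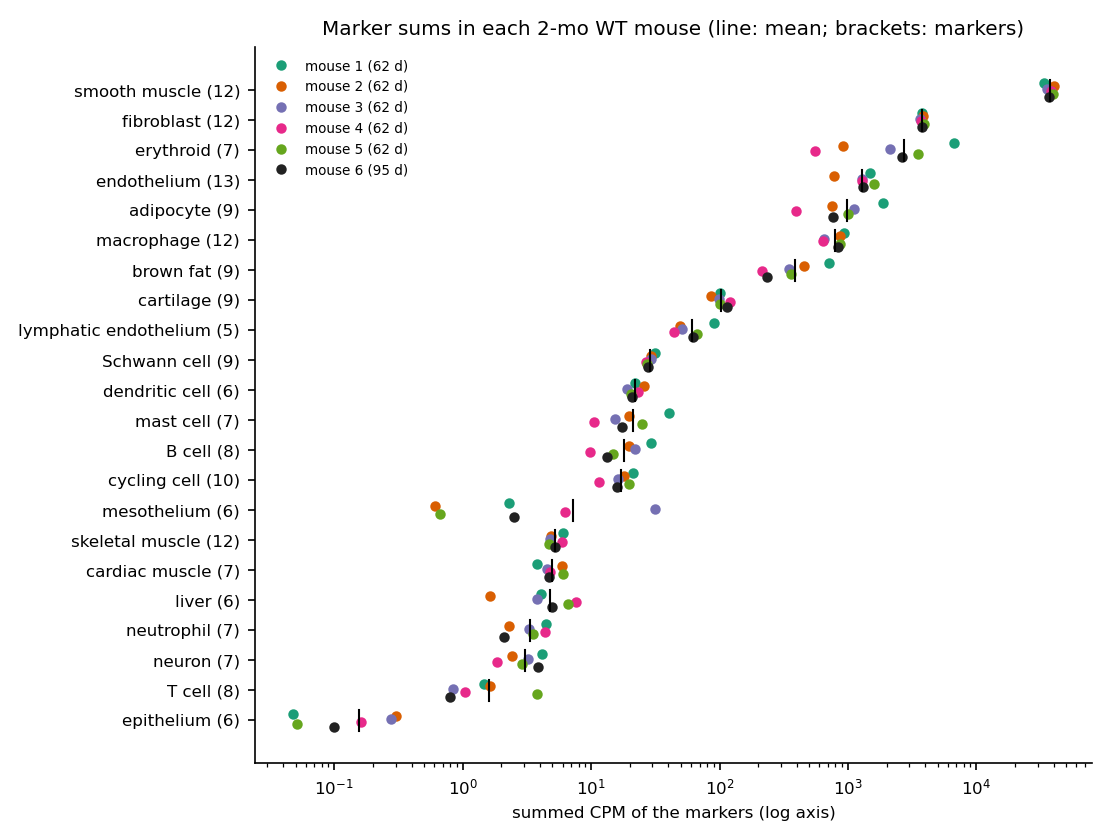
Summed CPM of each of 22 cell type marker lists (horizontal log axis) in the 6 mice, drawn as coloured points. Smooth muscle markers lie between 33433 and 40212 CPM in every mouse, whereas erythroid markers run from 549 CPM in mouse 4 to 6758 CPM in mouse 1.

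Lists of blood, fat, mesothelium and endothelium varied widely between mice. Erythroid markers summed to 6758, 915, 2128, 549, 3498 and 2615 CPM in mice 1 to 6, a 12.3-fold span in which 7 of 7 genes were highest in mouse 1 and 7 of 7 lowest in mouse 4. Adipocyte markers summed to 1881, 748, 1113, 398, 996 and 764 CPM and brown fat markers to 712, 452, 349.6, 214, 363 and 236 CPM. In the brown fat list Dio2 and Prdm16 had the highest mean CPM, ahead of Ucp1. Its 6 markers with a mean of 100 counts or more had CVs from 9.91 to 110%, so they did not vary alike. All 9 adipocyte markers were highest in mouse 1 and 8 of 9 lowest in mouse 4. Of the 9 brown fat markers, 7 were highest in mouse 1 and 8 lowest in mouse 4. Over the 10339 genes with a mean of 100 counts or more, 24.6% were highest in mouse 1 and 13.5% lowest in mouse 4. Ucp1, the uncoupling protein that defines brown fat, measured 259, 137, 56.9, 2.26, 98.3 and 18.6 CPM, with mouse 1 highest and mouse 4 nearly without it. Smooth muscle markers did not follow this order, although 6 of the 12 were lowest in mouse 1, against 11.9% of the 10339 genes.

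Endothelial markers summed to 1477, 774, 1282, 1282, 1584 and 1302 CPM in mice 1 to 6. Mouse 2 was lowest, in 10 of 13 genes, against 14.5% of the 10339 genes with a mean of 100 counts or more. Pecam1, a junction protein of endothelium, spanned 312 to 615 CPM while the clotting glycoprotein Vwf spanned 157 to 479 CPM. Mesothelial markers summed to 2.28, 0.604, 31.4, 6.28, 0.667 and 2.49 CPM. In mouse 3, 6 of 6 were highest, against 12.9% of the 10339 genes. Without the mouse that stands apart in each of these lists the remaining values still differed, by 1282 to 1584 CPM for endothelium and by 0.604 to 6.28 CPM for mesothelium.

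Across the 10339 genes that averaged 100 counts or more, the median CV between mice was 9.67%, against 4.26% from counting alone. The range from the 5th to the 95th percentile was 4.17 to 24.6%, 958 genes (9.27%) were under 5% and 291 (2.81%) were over 30%. Ribosomal protein genes had a median CV of 5.47%, contractile genes 7.62% (2.23 to 14.6%) and matrix genes 10.3%. Nuclear respiratory chain genes had a median CV of 14.3%, mitochondrially encoded mRNAs 16.8%, pseudogenes 15.4%, long non-coding RNAs 15.9% and small structured RNAs 20.7%. Among cell type lists the median CV ran from 8.38% for smooth muscle and 9.27% for fibroblasts to 16.7% for macrophages, 27.2% for endothelium, 52.0% for adipocytes, 81.1% for erythroid cells and 92.0% for brown fat. The common biological coefficient of variation, which removes counting noise, was 14.5%, and its gene-wise median was 12.1%.

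The lowest CV was that of Agk, a mitochondrial lipid kinase, at 20.2 to 20.8 CPM in the 6 mice (1.01%, where counting alone gives 5.31%). Rrp1, Rnf10, Aebp2, Ctdspl and Ap2m1 followed with CVs of 1.34 to 1.5%, all below the 1.62 to 3.34% that counting alone gives, so their order is not resolved at this depth. In contrast, Il6st, a receptor subunit of interleukin-6 signalling, had 1.63%, above its counting CV of 0.973%. At the other end, Acmsd, an enzyme of tryptophan catabolism, measured 0.0476, 98.4, 0, 0, 0.154 and 0 CPM in mice 1 to 6, so that its CV of 244% came from mouse 2 alone. Lars2, which charges mitochondrial leucine transfer RNA, measured 173, 10.3, 14.8, 5.88, 356 and 11.6 CPM, and the unnamed gene Gm42418 measured 666, 53.8, 96.9, 104, 1342 and 129.8 CPM. In both, mice 5 and 1 were the highest. Lars2 is also one of the genes resembling ribosomal RNA that are summed under other observations. Whether its counts come from its own mRNA was not tested. The other genes of greatest spread included Cox7a1, Cox8b, Ucp1 and Cpt1b, which serve oxidative metabolism of muscle and brown fat, with CVs of 110, 99.9, 99.0 and 99.9%, and 93.7% of the sequence words of Cpt1b occur in another gene.

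The differences were spread unevenly over the mice. Of the 291 genes with a CV over 30%, 161 (55.3%) were highest in mouse 1, against 24.6% of all 10339 genes. Of the same 291 genes, 125 were lowest in mouse 4, where 13.5% of all 10339 genes were lowest. Of the nuclear respiratory chain genes, 77 of 85 (90.6%) were highest in mouse 1, as were 11 of the 12 mitochondrially encoded mRNAs that passed the count minimum. Contractile genes went the other way, with 16 of 34 (47.1%) lowest in mouse 1 against 11.9% of all genes. Mouse 1 also had the highest erythroid and adipocyte sums and a rank correlation of -0.32 between gene length and its deviation from the mean across 11911 genes, which are not independent, where the other mice had -0.14 to 0.14. The part of these in the class shares was not tested. Without mouse 1, the number of genes with a CV over 30% was 221 in place of 291.

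The extremes of the 117 matrix genes lay in several mice. In mouse 5, 41 (35%) were highest, against 8.33% of all genes. The lowest values lay in mouse 1 for 34 (29.1%), against 11.9% of all genes, and in mouse 2 for 31 (26.5%), against 14.5%. In mouse 6, 27 (23.1%) were lowest, near the 21.2% of all genes. Of the genes named above, Eln, Sparc, Col3a1 and Lox were nonetheless each lowest in mouse 6, while Ccn2 and Myocd were highest in it. Mouse 6 is also the older animal, and with 1 such mouse its age cannot be told apart from the spread between mice.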

How the data were processed

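Total RNA of 1 descending aorta per mouse was sequenced in paired-end mode. The authors quantified reads with salmon against GENCODE M23 and summed transcripts to genes with tximport, and the deposited values are estimated counts written as whole numbers. The submitters' processing notes also name Bowtie 0.12.2 and mm10. Versions of salmon and tximport are not given in the sources used here. From the 54281 genes deposited, CPM and TPM were computed, with lengths of the longest coding transcript and classes from GENCODE M21 on the same assembly (54107 IDs found). Pairs of genes were compared by an exact sign-flip permutation test. Dispersion was estimated with edgeR 4.0.16 (TMM, at least 10 counts in at least 3 mice), with DESeq2 1.42.0 as an alternative, in R 4.3.3, and other steps ran in Python 3.11.15. The steps were tested on simulated data. Precision is set by the 12413229 to 21016752 counts per library. Genes were named when among the 20 of highest TPM, leading or second in a family, leading or at 0 in a marker list, in a pair, among the 15 of highest or lowest CV, or named by the study, and further family members and receptors were named to complete their order. The group to describe and the gene lists were chosen with earlier results of these data known.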

Additional observations from a re-analysis of the deposited data

Results flagged for a closer look

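In 23 of 215 values tested, 1 mouse lay far from the other 5, with a gap to its nearest neighbour that took more of the whole range than the critical value of Dixon's test for 6 values. Of the 23, 10 are among the 15 genes entered because their CV was highest, where such a gap comes with the choice, and 1 is among the 15 of lowest CV. The other 185 values gave 12, and chance alone gives this in about 1 of 20 groups, with values that are not independent of each other. Among those 12, mouse 3 was the distant animal in 4, mouse 2 in 3, mouse 1 in 2 and mice 4, 5 and 6 in 1 each.

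Mouse 1 had the highest share of nuclear respiratory chain genes, 0.827% of counts against 0.674% in the next mouse. The oxidative genes Cox8b at 44.9 CPM (next 15.3), Cox7a1 at 21.5 CPM (next 7.73) and Cpt1b at 72.5 CPM (next 26.5) were highest in it, as were Acsm3 at 29.8 CPM, Klhdc7a at 25.9 CPM and Clstn3 at 20.8 CPM. Mmp23 was lowest in it, at 95.1 CPM against 105 CPM in the next mouse. The adipocyte and brown fat markers were also highest in mouse 1, and their part in these values was not tested.

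In mouse 3 the mesothelial markers summed to 31.4 CPM (next 6.28), with Upk3b, a mesothelial membrane protein, at 12 CPM and Msln, mesothelin, at 11.4 CPM. Cav1 was highest in the same mouse at 1517 CPM (next 1320.4), and Aebp2 was lowest at 50.4 CPM (next 51.7), a gap within counting error, since its CV of 1.47% is below the 3.34% of counting alone. In mouse 2 the endothelial markers summed to 774 CPM (next 1282), Myh9 was lowest at 252 CPM and Kcnmb1 highest at 188 CPM, and Acmsd reached 98.4 CPM while no other mouse exceeded 0.154 CPM.

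In mouse 6, the animal of 95 d, Eln was lowest at 2991 CPM against 5261 CPM in the next mouse. The RNAs AY036118 and CT010467.1 were highest in it at 229.7 CPM (next 25.2) and 333 CPM (next 67.1). Mouse 4 had the highest Gm13370 at 46.6 CPM and Ckm, muscle creatine kinase, at 3.63 CPM. The T cell markers summed to 3.80 CPM in mouse 5 (next 1.63), a level of few counts.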

How the results depend on the processing

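The length given to each gene changed most. The share of TPM in the 100 most abundant genes, 33.1%, was 36.1% with the union of exons, 30.2% with the mean transcript length and 27.0% with no length scaling, and the number of genes that hold 50% was 316.5, 451 and 593.2 on average. The Dcn to Bgn log2 difference turned to -0.28 with the union of exons and to -0.64 with the mean length, and that of Notch3 to Notch1 to -0.57 with the mean length. In all, 22 of 24 pairs kept their direction under both lengths, though the ratio moved by over 1.5 times in 17, and 35 of 40 families their leading gene under each. Against counts of nuclear protein-coding genes, the contractile share was 8.78%, matrix 8.16% and ribosomal protein 2.36%, and by TPM matrix held 6.69%, mitochondrially encoded mRNAs 6.38% and ribosomal proteins 6.79%. By mean TPM, 5 of 22 marker lists kept their place. The common coefficient of variation, 14.5%, was 13.7% with libraries thinned to the smallest, 15.3% with no filter and 9.10% as the median of DESeq2. Leaving out each mouse in turn, it ran from 13.2 to 15%, the marker lists in place from 14 to 22, and called pairs from 0 to 0, since 5 mice cannot go below p = 0.0625 in the exact permutation test, while 24 of 24 directions held. Added after seeing the data, the count of genes with a CV over 30%, 291, ran from 221 without mouse 1 to 342 without mouse 3, and with TMM scaling it was 279, of which 134 were highest in mouse 1. No paired analysis was possible because a single group was described and the result compares no groups.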

Other observations

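Several gene groups chosen after the values were seen also differed between the mice. Their counts of extremes come in part with that choice and were not tested. Of the 10339 genes with a mean of 100 counts or more, 24.6% were highest and 11.9% lowest in mouse 1. In mouse 4, 12.1% of these were highest and 13.5% lowest, in mouse 5 25.6% were lowest, and in mouse 6 13.1% were highest. The heat shock genes summed to 3228, 3879, 3965, 5553, 4866 and 6611 CPM in mice 1 to 6, and of the 12 genes 10 were highest in mouse 6 and 10 lowest in mouse 1. Hspa1a, an inducible chaperone, measured 87.8, 98, 163, 405, 186 and 487 CPM, and its near copy Hspa1b 61.8, 69.6, 129, 352, 149 and 477 CPM, with 65.4% of the sequence words of Hspa1a found in another gene. Genes known to respond to glucocorticoids showed the same extremes, with sums of 643, 801, 958, 1004, 1048 and 1322 CPM and 8 of 10 highest in mouse 6. Fkbp5, which tempers the glucocorticoid receptor, measured 13, 14, 19.6, 22.2, 33.5 and 53.4 CPM. In both groups mouse 1 lay at the lower end and mouse 6 at the upper end, but mice 2 to 5 also differed among themselves.

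Immediate early genes, which respond within minutes to stimulation, summed to 1041, 934, 1215, 991, 509.8 and 694 CPM, with 8 of 12 lowest in mouse 5. Fos, their best known member, measured 154, 80.03, 116, 60.4, 14 and 24.3 CPM. Clock genes summed to 654, 707, 765, 910.3, 689.8 and 707 CPM, with 11 of 15 highest in mouse 4. The output gene Dbp measured 17.4, 20.8, 31.9, 65.2, 37.1 and 32.1 CPM and the core gene Arntl 52.4, 47.7, 32.5, 19.7, 28 and 21.5 CPM, so that mouse 4 had the highest Dbp and the lowest Arntl. The time of day at which each aorta was taken is not given in the sources used here. Genes of lipid and thermogenic metabolism summed to 1611, 629, 699, 197, 660.4 and 397 CPM, and all 14 were highest in mouse 1 and lowest in mouse 4. Genes resembling ribosomal RNA summed to 1528, 574, 867, 1188, 2488 and 1465 CPM, with mouse 5 highest and mouse 2 lowest. Only 2 of these 5 genes were highest in mouse 5 and 2 lowest in mouse 2, so the group did not move together.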
